A study of Arabidopsis thaliana with 24 samples.

Results

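Genes for the synthesis and acetylation of cell wall polysaccharides were followed in leaves of Arabidopsis thaliana given water or salicylic acid (SA), a plant immune hormone, at either of 2 times. The members were the probe sets whose single gene symbol in the array's probe-to-gene table begins with TBL, CESA, CSL, GAUT, GATL or IRX, with or without the prefix AT. The rule found 33 of the 22746 probe sets tested, each for a gene of its own: 22 TBL, 5 CSLC, 2 CSLA, 1 CSLD, 2 IRX genes and 1 GAUT gene. No symbol beginning with CESA or GATL was found, so those families were not analysed here. Of the probe sets tested, 13513 carried 1 symbol, and wall genes among the rest were not analysed here. The probe set of TBL32 is of a kind that can match several related transcripts.

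RNA came from true leaves of wild-type plants, 23 days old and grown on soil with a 12 h day, that had been moved into constant light 24 h before treatment and stayed there. Treatment with water or 1 mM SA took place at ZT24 or at ZT36 (zeitgeber time, in hours), which for such plants are subjective dawn and subjective dusk. Samples carry the labels 0 h or 3 h after treatment, which makes 8 groups of 3 arrays, described as biological replicates. The series asks whether the response to SA depends on the time of day at which it is given. The deposited log2 values are centred: the median of every probe set over the 24 arrays is 0. They show differences between groups and hold no expression level. Genes cannot be ranked by level, and the labelled tissue cannot be checked by the presence of its markers. In bulk leaf RNA, fewer cells of a type and less RNA per cell cannot be told apart.

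The wall matrix of the primary cell wall holds hemicelluloses (xyloglucan, xylan and mannan) and pectin, made in the Golgi apparatus by glycosyltransferases and carried to the wall. Cellulose synthase-like (CSL) enzymes build glucan or mannan backbones, with the CSLC family making that of xyloglucan and the CSLA family that of mannan. TRICHOME BIREFRINGENCE-LIKE (TBL) proteins are a large family, many of which add O-acetyl groups to a given polymer: TBL23, TBL25 and TBL26 act on mannan, TBL19, TBL20 and TBL21 on xyloglucan, and TBL28, TBL30, TBL32, TBL34 and TBL35 on xylan. IRX15 and IRX15-L are needed for normal xylan, and GAUT proteins are galacturonosyltransferases, several of which make pectin.

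Arrays labelled SA 0 h differed from arrays labelled water 0 h in 16.2% of all probe sets at ZT24 and 29% at ZT36. Arrays labelled water 3 h differed from water 0 h in 0% of probe sets at ZT24 and 0.00879% at ZT36 (limma, adjusted p under 0.05). By the labels, SA 0 h and water 0 h were both taken at the moment of treatment. Whether their difference is a response to SA was not tested. No array was moved to another group. Each comparison of SA at 3 h was therefore run against water 3 h and against the arrays labelled SA 0 h. Where a call is given against a single control, the gene did not pass against the other. Within a group, arrays correlated at 0.62 to 0.94 over all probe sets.

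Among the 33 genes, TBL26 covered by far the widest range over the 24 arrays, 5.90 on the log2 scale, wider than 99.7% of all probe sets. TBL45 followed at 2.83 and TBL25 at 2.46, and the narrowest was TBL30 at 0.26. The median range was 1.15 over the 33 genes and 0.86 over all probe sets. In the 15 comparisons described here, 26 of the genes passed the test at least once. TBL25 and TBL26 did so most often, in 10 comparisons each, followed by CSLA03, CSLC5 and TBL35 in 9 each. The share of all probe sets that passed at least once was not counted. Since single comparisons called up to 40.9% of all probe sets, the count of 26 does not set these genes apart.

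**Figure D1:**
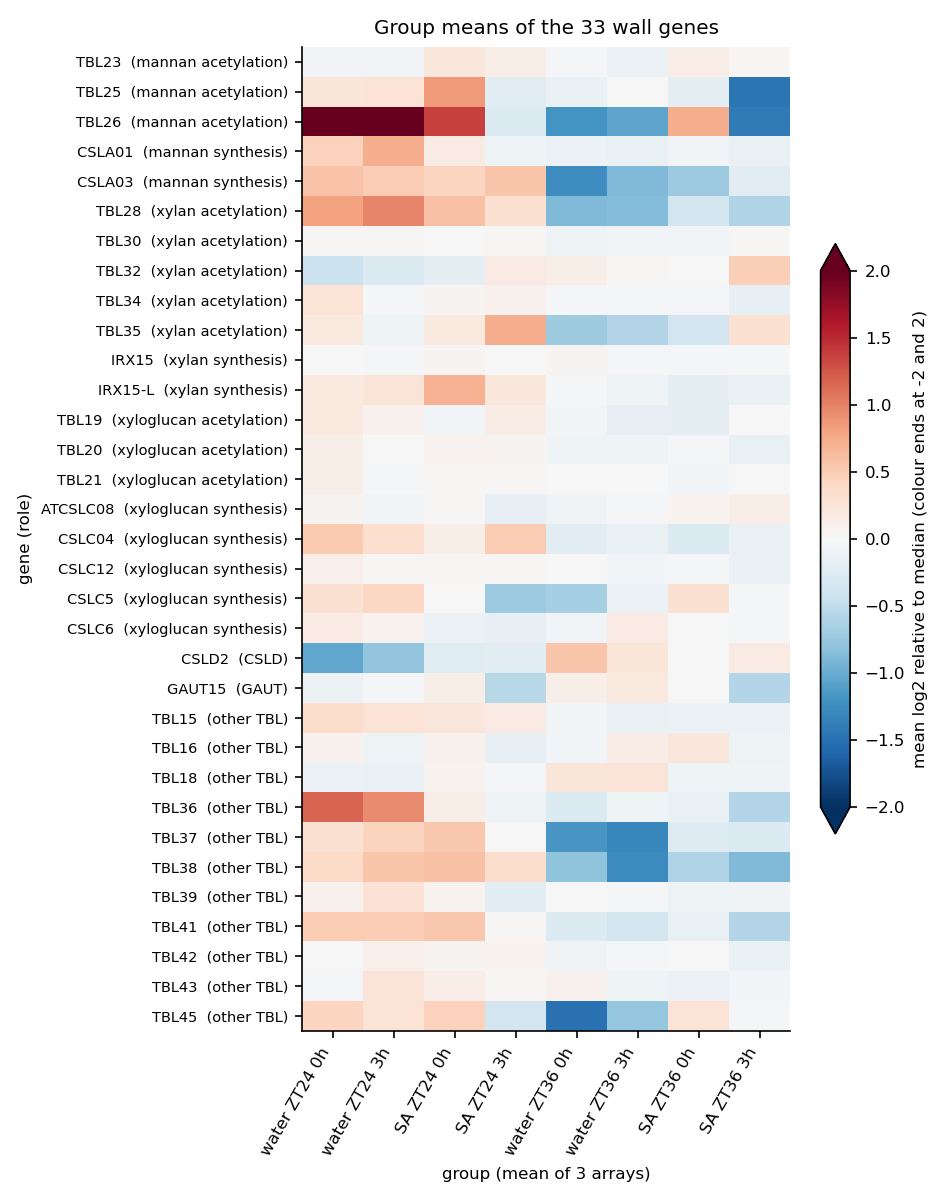
Group means of the 33 genes (rows, with the role of each) in the 8 groups (columns, mean of 3 arrays), as log2 relative to the median of the gene over all arrays; colours end at -2 and 2. TBL26 is highest in both water groups of ZT24 (3.63 and 3.60), and most of the strongly coloured rows are higher at ZT24 than at ZT36.

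TBL26 (AT4G01080), a mannan O-acetyltransferase, had the largest difference of the 33 genes in the comparison of the 2 times in water. At ZT24 its log2 values in water were 3.48, 3.85 and 3.56 at 0 h and 4.03, 3.49 and 3.29 at 3 h. At ZT36 they were -0.41, -1.76 and -1.44 at 0 h and -0.87, -1.20 and -1.08 at 3 h. All 6 water arrays of ZT24 thus lay above all 6 of ZT36. The ZT24 minus ZT36 difference in water was 4.83 ± 0.32 (SE, 3 arrays a group, adjusted p = 1.3e-10) at 0 h, a 28.5-fold difference, and 4.65 ± 0.32 (adjusted p = 2.9e-10) at 3 h.

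In the arrays given SA, TBL26 read differently at each time. At ZT24 it stood at 1.40, 1.45 and 1.24 in the arrays labelled SA 0 h and at -0.46, 0.03 and -0.37 in those of SA 3 h. The order of the ZT24 groups was therefore water, then SA 0 h, then SA 3 h, with no overlap between them. At ZT36 the arrays labelled SA 0 h ran from -0.03 to 1.14 (mean 0.73), above all water arrays of that time, and those of SA 3 h gave -0.88, -1.88 and -1.46, beside the water arrays of that time, which ran from -1.76 to -0.41. Replicate 3 of SA 0 h at ZT36 was its lowest array and lay apart from the other two.

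After ZT24, TBL26 was 14.6-fold lower in SA than in water at 3 h, a log2 difference of -3.87 ± 0.32 (adjusted p = 4.6e-09). Against SA 0 h the difference was -1.63 ± 0.32 (adjusted p = 3.6e-04). After ZT36 it was -0.36 ± 0.32 against water (adjusted p = 0.44) and -2.14 ± 0.32 against SA 0 h (adjusted p = 2.0e-05), so the fall at that time was seen with the second control and not with the first. In the arrays labelled SA the gene differed less between the times: ZT24 minus ZT36 was 0.63 (adjusted p = 0.16) at 0 h and 1.14 (adjusted p = 0.01) at 3 h. The last call was lost without replicate 2 of SA 3 h at ZT36 (0.90, adjusted p = 0.065) and under quantile normalization (0.91, adjusted p = 0.096).

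**Figure D2:**
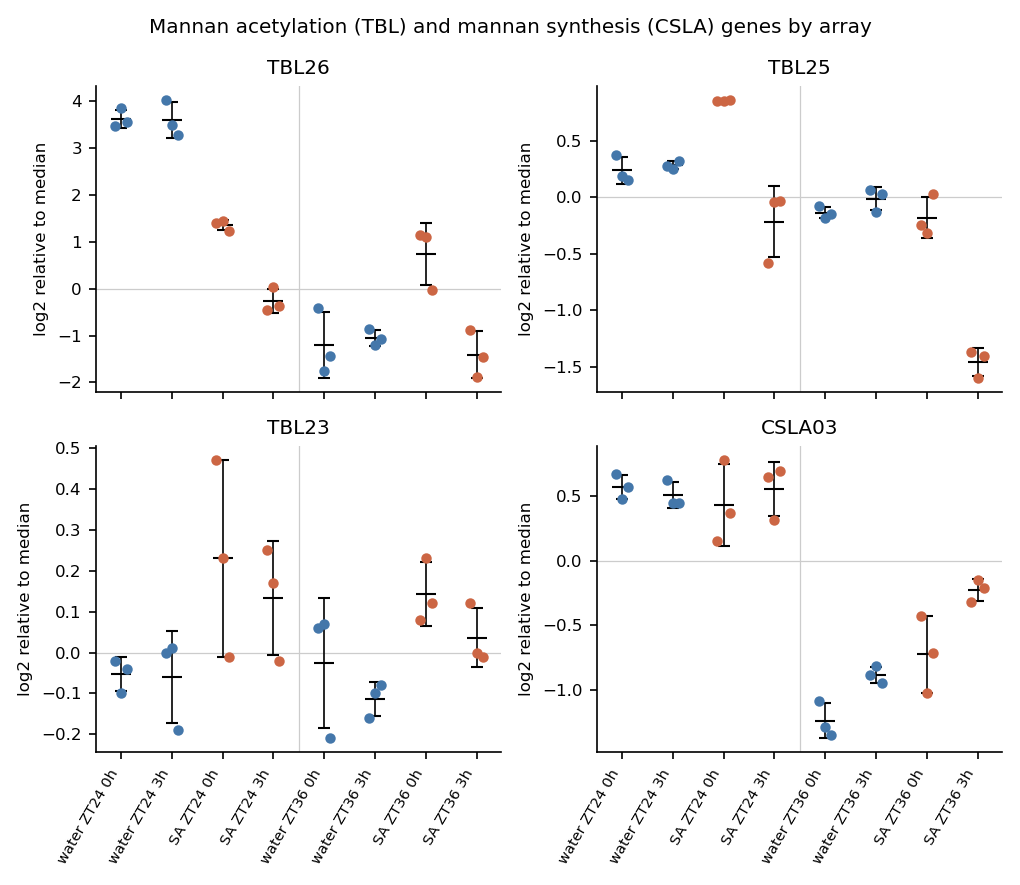
Log2 value relative to the median of the gene in each array (points; blue for water, red for SA), with group mean and SD (bars), for the mannan acetylation genes TBL26, TBL25 and TBL23 and the mannan synthesis gene CSLA03; each panel has its own scale. TBL26 is high in water at ZT24, TBL25 is lowest in SA 3 h at ZT36 (-1.37, -1.60 and -1.40), TBL23 stays within 0.69, and CSLA03 separates the times of treatment.

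In water, most of the wall genes that passed the test were higher at ZT24 than at ZT36. At 0 h, 16 of the 33 genes were higher and 3 lower (57.6%), where 18.7% of all probe sets were higher and 22.2% lower (40.9% in all). At 3 h, 15 were higher and 4 lower (57.6%), where 16.8% of all probe sets were higher and 21.2% lower (38.1% in all). The median difference over the 33 genes was 0.24 at 0 h and 0.29 at 3 h, against 0.01 and 0.03 over all probe sets. These comparisons share no array, and 16 genes passed in both, all with the same sign, which is 84.2% of either list. The same overlap was not counted over all probe sets. Water 3 h differed from water 0 h in 0% of all probe sets at ZT24 and 0.00879% at ZT36. The overlap can therefore not be read as particular to the wall genes.

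Of 47 marker names, 6 had a named probe set, and none of them marks xylem or phloem. The trichome gene TRY was higher at ZT24 in every comparison of the times, by 3.14 in water 0 h (adjusted p = 7.4e-12), 3.15 in water 3 h (adjusted p = 7.6e-12), 2.22 in SA 0 h (adjusted p = 6.0e-09) and 2.34 in SA 3 h (adjusted p = 2.4e-09). Its values in water 0 h ran from 1.52 to 1.76 at ZT24 and from -1.70 to -1.19 at ZT36. The mesophyll genes RCA and LHCB4.2 were higher at ZT24 in water 0 h by 0.54 and 0.45 (adjusted p = 6.2e-06 and 0.0057), and LHCB4.1 differed by 0.01 (adjusted p = 0.94). In water 3 h the values were 0.45 for RCA and 0.58 for LHCB4.2 (adjusted p = 7.1e-05 and 8.1e-04) and -0.06 for LHCB4.1 (adjusted p = 0.6). In SA 0 h and SA 3 h LHCB4.2 was higher at ZT24 by 1.17 and 1.66 (adjusted p = 4.8e-07 and 2.7e-09), RCA differed by 0.14 and 0.22 (adjusted p = 0.21 and 0.038), and LHCB4.1 by 0.16 and 0.31 (adjusted p = 0.16 and 0.0049). The guard cell gene FMA went the other way: it was lower at ZT24 in water 3 h, at -0.33 (adjusted p = 0.026), and in SA 0 h, at -0.38 (adjusted p = 0.018), and differed by -0.16 in water 0 h and -0.29 in SA 3 h (adjusted p = 0.3 and 0.065). The root gene LBD29 passed in none of the 15 comparisons. The part of cell composition in the differences of the wall genes was not tested.

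Among the mannan genes, CSLA03, a glucomannan synthase gene, followed TBL26. Its water values at ZT24 were 0.67, 0.48 and 0.57 at 0 h and 0.63, 0.45 and 0.45 at 3 h. At ZT36 they were -1.09, -1.29 and -1.35 at 0 h and -0.89, -0.82 and -0.95 at 3 h. The groups were well apart, with differences of 1.82 ± 0.15 (adjusted p = 2.6e-09) and 1.39 ± 0.15 (adjusted p = 1.6e-07). TBL25, another mannan acetyltransferase, was higher at ZT24 by 0.37 ± 0.12 at 0 h (adjusted p = 0.014), a call lost without replicate 1 of water 0 h at ZT24 (adjusted p = 0.072), and its difference at 3 h was 0.29 (adjusted p = 0.054). CSLA01, of the mannan synthase family, passed at 3 h with 0.87 ± 0.28 (adjusted p = 0.02), but replicate 1 of water 3 h at ZT24 alone stood at 1.82 and the other two at 0.16 and 0.18. Without that array the difference was 0.32 (adjusted p = 0.15), and without replicate 1 of water 3 h at ZT36 it was 0.79 (adjusted p = 0.068).

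The xylan acetylation genes split by direction. TBL28 read 0.78, 0.83 and 0.78 in water 0 h at ZT24 and -0.59, -1.02 and -1.07 at ZT36, a difference of 1.69 ± 0.13 (adjusted p = 2.0e-09), and 1.84 ± 0.13 at 3 h (adjusted p = 7.0e-10). TBL35 was also higher at ZT24, by 0.89 ± 0.09 at 0 h (adjusted p = 5.7e-08) and 0.50 ± 0.09 at 3 h (adjusted p = 1.2e-04). TBL32 went the other way: it was lower at ZT24 by 0.54 ± 0.10 at 0 h, written as -0.54 (adjusted p = 1.0e-04), and its 3 h difference was -0.31 (adjusted p = 0.015), a call lost without replicate 3 of either group (adjusted p = 0.055 and 0.13). TBL34 passed at 0 h alone, with 0.31 (adjusted p = 0.0059), which became 0.21 (adjusted p = 0.056) without replicate 1 of water 0 h at ZT24. TBL30, whose gene lies next to that of TBL28 in the RefSeq annotation, differed by 0.10 and 0.07 and passed in neither. The genes for xylan synthesis did not pass in water: IRX15 differed by -0.06 at 0 h (adjusted p = 0.73) and IRX15-L by 0.21 (adjusted p = 0.27).

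Of the 5 genes for the xyloglucan backbone, CSLC5 and CSLC04 passed at both sampling times, both higher at ZT24. CSLC5 differed by 0.98 ± 0.12 at 0 h (adjusted p = 7.8e-07) and 0.53 ± 0.12 at 3 h (adjusted p = 0.001). CSLC04, the family member best known for making the xyloglucan backbone, differed by 0.76 ± 0.17 (adjusted p = 9.8e-04) and 0.47 ± 0.17 (adjusted p = 0.032). Its second call was lost without replicate 1 or 2 of water 3 h at ZT24 or replicate 1 or 3 of water 3 h at ZT36 (adjusted p = 0.085 to 0.15). CSLC6 passed at 0 h alone (0.24, adjusted p = 0.036), and that call was lost without replicate 1 or 2 of water 0 h at ZT24 or replicate 2 or 3 at ZT36 (adjusted p = 0.054 to 0.22). Of the xyloglucan acetylation genes only TBL19 passed, with 0.24 at both sampling times (adjusted p = 0.032 and 0.034). Leaving out any 1 of 4 of the 6 arrays ended either call, with adjusted p of 0.085 to 0.17 at 0 h and 0.052 to 0.14 at 3 h.

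CSLD2, known for its role in the tip growth of root hairs, was the gene with the largest difference towards ZT36. Its water 0 h values were -0.98, -1.15 and -0.99 at ZT24 and 0.40, 0.60 and 0.67 at ZT36. At 3 h they were -0.71, -0.60 and -1.06 at ZT24 and 0.21, 0.07 and 0.45 at ZT36. No ZT24 array reached a ZT36 array, and the differences were -1.60 ± 0.14 (adjusted p = 1.1e-08) and -1.03 ± 0.14 (adjusted p = 5.7e-06). GAUT15, of the pectin-related GAUT family, differed by -0.24 at each sampling time (adjusted p = 0.1 and 0.097).

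Among the 11 TBL genes with no polymer assigned here, TBL36, TBL37, TBL38, TBL41 and TBL45 were higher at ZT24 at both sampling times. TBL45 differed by 1.93 ± 0.31 (adjusted p = 2.7e-05) at 0 h and by 1.06 ± 0.31 (adjusted p = 0.0093) at 3 h. Its ZT36 arrays were widely spread, from -2.09 to -0.59 at 0 h, and the 3 h call was lost without replicate 3 of water 3 h at ZT36 (0.70, adjusted p = 0.085). TBL37 differed by 1.49 and 1.74 (adjusted p = 5.1e-06 and 8.4e-07) and TBL36 by 1.43 and 1.04 (adjusted p = 4.4e-08 and 4.4e-06). TBL38 differed by 1.18 and 1.83 (adjusted p = 0.0019 and 2.7e-05) and TBL41 by 0.79 and 0.88 (adjusted p = 1.8e-04 and 7.0e-05). TBL15 was higher at ZT24 by 0.40 and 0.41 (adjusted p = 0.026 at each), calls that 4 and 3 of the 6 arrays ended when left out singly (adjusted p = 0.063 to 0.17). TBL18 was lower at ZT24, with -0.35 and -0.40 (adjusted p = 0.002 and 7.7e-04). TBL43 passed at 3 h alone with 0.35 (adjusted p = 0.0032), as did TBL16 with -0.25 (adjusted p = 0.044), a call that 4 of the 6 arrays ended when left out (adjusted p = 0.093 to 0.18).

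**Figure D3:**
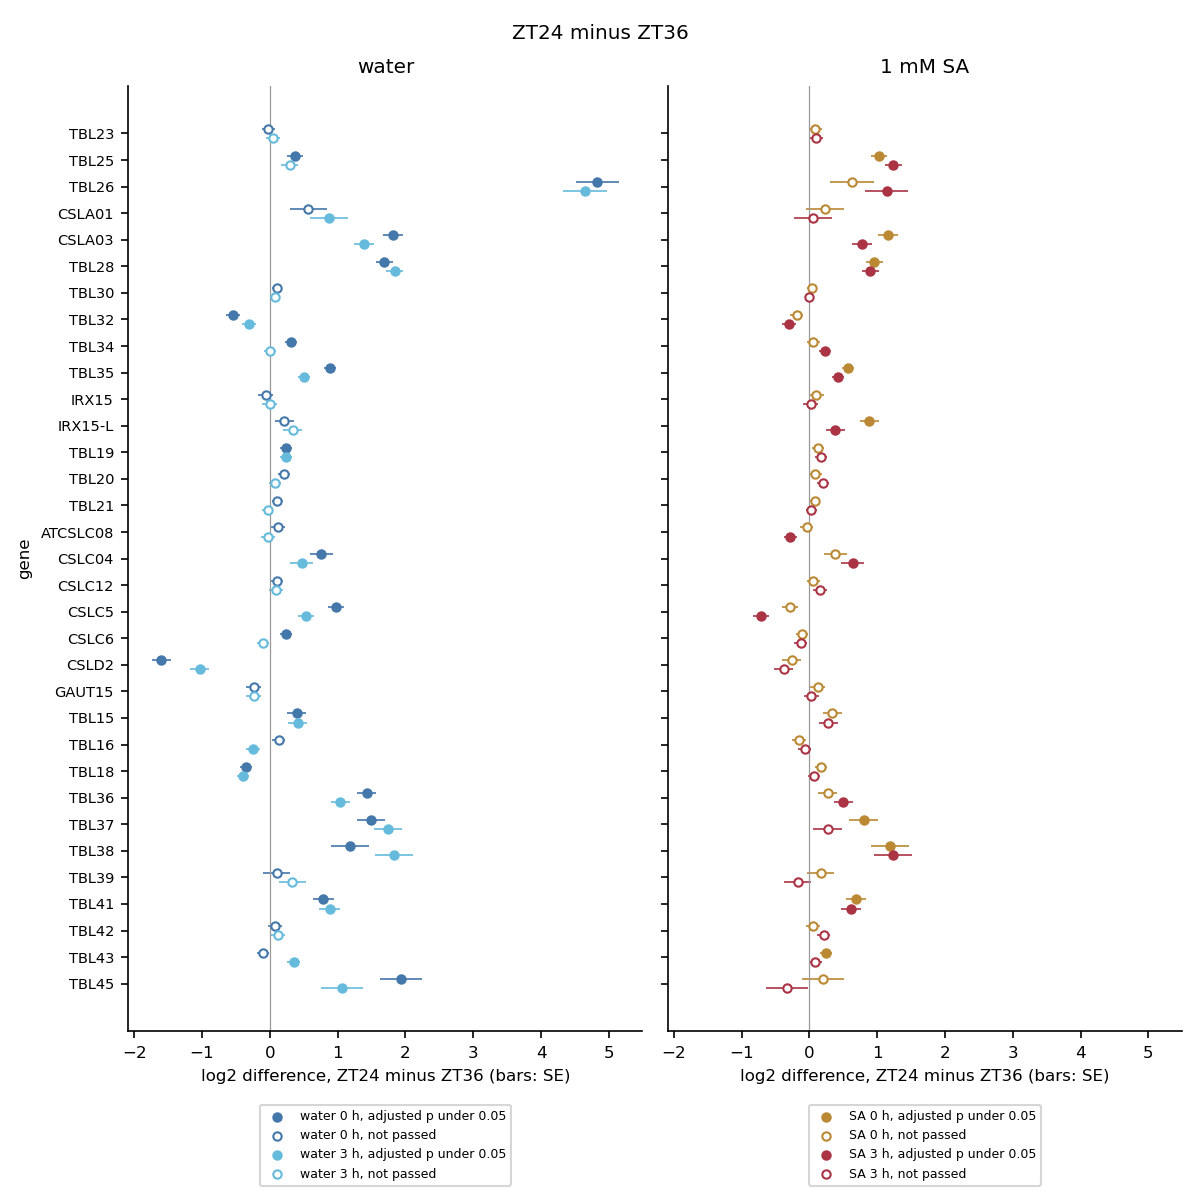
ZT24 minus ZT36 log2 difference of each gene in water (left) and in 1 mM SA (right), at 0 h and 3 h; bars are standard errors and filled points have an adjusted p under 0.05. In water TBL26 lies at 4.83 and 4.65, CSLD2 at -1.60 and -1.03, and most filled points lie above 0.

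The same contrast was taken between arrays given SA. At 0 h, 9 of the 33 genes were higher at ZT24 and 0 lower (27.3%), where 9.82% of all probe sets were higher and 14.6% lower (24.5% in all). At 3 h, 11 were higher and 3 lower (42.4%), where 11.6% were higher and 16.3% lower (28% in all). TBL38 differed by 1.19 and 1.24 (adjusted p = 0.0037 and 0.0022), CSLA03 by 1.16 and 0.78 (adjusted p = 5.0e-06 and 3.4e-04) and TBL28 by 0.96 and 0.90 (adjusted p = 1.8e-05 and 2.8e-05). TBL25 differed by 1.03 and 1.24 (adjusted p = 1.4e-06 and 9.5e-08), where its differences in water were 0.37 and 0.29. IRX15-L, a xylan gene, passed at 0 h with 0.88 ± 0.14 (adjusted p = 8.6e-05) and at 3 h with 0.38 (adjusted p = 0.05 after rounding). CSLC5, higher at ZT24 in water, was lower there in SA at 3 h, with -0.71 ± 0.12 (adjusted p = 9.2e-05). CSLD2 differed by -0.26 and -0.38 and did not pass (adjusted p = 0.21 and 0.051). TBL35 differed by 0.57 and 0.42 (adjusted p = 6.5e-05 and 0.0012) and TBL41 by 0.69 and 0.61 (adjusted p = 0.0017 and 0.0038).

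The other genes of these lists passed once. At 0 h, TBL37 differed by 0.80 (adjusted p = 0.0067) and TBL43 by 0.25 (adjusted p = 0.039), the latter lost without any 1 of 4 arrays (adjusted p = 0.053 to 0.19). At 3 h, besides TBL26, CSLC04 differed by 0.64 (adjusted p = 0.0069), TBL36 by 0.50 (adjusted p = 0.01) and TBL34 by 0.23 (adjusted p = 0.046). TBL32 and ATCSLC08 were lower at ZT24, at -0.30 and -0.28 (adjusted p = 0.023 and 0.044). At 3 h the calls of IRX15-L, TBL34 and ATCSLC08 were each lost without any 1 of 4 arrays, and those of TBL32 and TBL36 without any 1 of 2 (adjusted p = 0.055 to 0.28). Under quantile normalization only 5 of the 14 genes passed at 3 h, namely TBL25, TBL38, TBL28, CSLA03 and CSLC5. The calls over all probe sets fell as well, from 2647 higher and 3711 lower to 1470 and 1973.

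At 3 h after ZT24, SA was followed by lower values of several wall genes, with TBL26 first among them. Against water, 3 genes were higher and 11 lower (42.4%), where 17.7% of all probe sets were higher and 20.5% lower (38.1% in all). Against SA 0 h, 2 were higher and 7 lower (27.3%), where 14.3% were higher and 17.4% lower (31.7% in all). The median difference over the 33 genes was -0.07 against water and -0.10 against SA 0 h, and -0.03 over all probe sets in each. Without replicate 3 of SA 3 h the total against water was 9 in place of 14.

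At 3 h after ZT36, TBL25, GAUT15, TBL36 and TBL16 fell and TBL35, CSLA03 and TBL32 rose against both controls. Against water, 4 genes were higher and 5 lower (27.3%), where 18.5% of all probe sets were higher and 21.6% lower (40.2% in all), and quantile normalization gave 6 higher and 4 lower. Against SA 0 h, 3 were higher and 7 lower (30.3%), where 13.3% were higher and 16.4% lower (29.7% in all). Without replicate 2 of SA 3 h the latter total was 6. The share of the 33 genes called was near that of all probe sets after ZT24 against water (42.4% against 38.1%) and after ZT36 against SA 0 h (30.3% against 29.7%). It was 27.3% against 31.7% after ZT24 against SA 0 h, and 27.3% against 40.2% after ZT36 against water. Whether these shares differ was not tested.

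Among the markers, the guard cell gene FMA was lower in SA than in water at 3 h, at -0.44 after ZT24 and -0.48 after ZT36 (adjusted p = 0.0035 and 0.0015), and lower than in SA 0 h, at -0.31 and -0.40 (adjusted p = 0.046 and 0.01). Of the mesophyll markers, after ZT36 LHCB4.2 lay below water by a log2 difference of -1.04 and LHCB4.1 by one of -0.40 (adjusted p = 6.5e-07 and 2.5e-04), and both lay below SA 0 h, at -0.65 and -0.23 (adjusted p = 3.0e-04 and 0.033), while RCA differed by 0.10 and -0.18 (adjusted p = 0.35 and 0.095). After ZT24 none of these 3 genes passed against either control. TRY was lower than in water after ZT24, at -0.60 (adjusted p = 0.0082), and differed by 0.21 after ZT36 (adjusted p = 0.38). Against SA 0 h it differed by -0.19 after ZT24 and -0.32 after ZT36 (adjusted p = 0.47 and 0.2). Their part in the results on SA was not tested.

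TBL25 (AT1G01430), a mannan acetyltransferase, had the largest fall against water after ZT36. Its values in SA 3 h at ZT36 were -1.37, -1.60 and -1.40, against 0.06, -0.13 and 0.03 in water 3 h and -0.25, -0.32 and 0.03 in SA 0 h. The SA 3 h arrays lay below every other array of the gene. The difference was -1.45 ± 0.12 against water (adjusted p = 3.4e-09), a 2.72-fold fall, and -1.28 ± 0.12 against SA 0 h (adjusted p = 4.1e-08). After ZT24 it was -0.50 ± 0.12 against water (adjusted p = 0.0018) and -1.07 ± 0.12 against SA 0 h (adjusted p = 4.0e-07). The arrays labelled SA 0 h at ZT24 read 0.85, 0.85 and 0.86, above those of water.

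Beside TBL25 and TBL26, CSLA03 rose after ZT36, by 0.66 ± 0.15 against water (adjusted p = 8.5e-04) and by 0.50 ± 0.15 against SA 0 h (adjusted p = 0.012), the latter call being lost without replicate 2 of SA 0 h (0.35, adjusted p = 0.1). After ZT24 its differences were 0.05 and 0.12 (adjusted p = 0.85 and 0.61). CSLA01 differed from water by -0.81 after ZT24 (adjusted p = 0.028). That value fell to -0.26 (adjusted p = 0.26) without replicate 1 of water 3 h, the array at 1.82, and leaving out any SA 3 h array also ended the call (adjusted p = 0.055 to 0.071). TBL23 differed by 0.19 or less in size and passed in none of these comparisons.

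Of the xylan acetylation genes, TBL35 and TBL32 rose with SA after both times and against both controls. TBL35 read 0.78, 0.64 and 0.75 in SA 3 h at ZT24, against -0.17, -0.10 and -0.00 in water 3 h and 0.17, 0.16 and 0.28 in SA 0 h. At ZT36 it read 0.28, 0.27 and 0.36, against -0.54, -0.67 and -0.57 in water 3 h and -0.42, -0.24 and -0.44 in SA 0 h. No array of a control group reached those of SA 3 h. The rise over water was 0.81 ± 0.09 after ZT24 (adjusted p = 2.3e-07) and 0.90 ± 0.09 after ZT36 (adjusted p = 5.2e-08), and that over SA 0 h was 0.52 (adjusted p = 8.6e-05) and 0.67 (adjusted p = 4.4e-06).

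TBL32 rose by 0.46 ± 0.10 over water after ZT24 (adjusted p = 5.8e-04) and by 0.45 ± 0.10 after ZT36 (adjusted p = 6.1e-04). Over SA 0 h it rose by 0.36 (adjusted p = 0.0064) and 0.47 (adjusted p = 6.2e-04). TBL28 fell with SA after ZT24 against water, from 0.89, 0.81 and 1.20 to 0.26, 0.36 and 0.28, a difference of -0.67 ± 0.13 (adjusted p = 3.5e-04). Against SA 0 h it differed by -0.29 (adjusted p = 0.11), and after ZT36 by 0.27 against water (adjusted p = 0.13). TBL30 and TBL34 passed in none of the 4 comparisons. IRX15-L passed in 1, against SA 0 h after ZT24, with -0.46 (adjusted p = 0.016), and not without replicate 1 of SA 0 h (adjusted p = 0.075) or replicate 3 of SA 3 h (adjusted p = 0.1).

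In the xyloglucan group, CSLC5 fell after ZT24. Its SA 3 h values were -0.66, -0.76 and -0.78, against 0.57, 0.26 and 0.41 in water 3 h and -0.01, 0.01 and 0.03 in SA 0 h. The differences were -1.15 ± 0.12 against water (adjusted p = 9.1e-08) and -0.74 ± 0.12 against SA 0 h (adjusted p = 3.4e-05). After ZT36 it differed by 0.10 from water (adjusted p = 0.58) and by -0.32 from SA 0 h (adjusted p = 0.043). The latter call was lost without any 1 of 5 of the 6 arrays, replicate 1 of SA 0 h being the other (adjusted p = 0.067 to 0.2). CSLC6 fell by 0.23 against water after ZT24, written as -0.23 (adjusted p = 0.045), a call lost without replicate 2 or 3 of either group (adjusted p = 0.095 to 0.19). CSLC04, CSLC12, ATCSLC08 and the acetylation genes TBL19, TBL20 and TBL21 passed in none of the 4 comparisons.

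GAUT15 fell in all 4 comparisons and passed in none of the other comparisons. It read -0.75, -0.49 and -0.41 in SA 3 h at ZT24 and -0.38, -0.61 and -0.74 at ZT36. The controls of ZT24 read -0.01, 0.08 and -0.20 in water 3 h and 0.12, 0.11 and 0.12 in SA 0 h. Those of ZT36 read 0.20, 0.01 and 0.41 in water 3 h and -0.05, 0.06 and -0.01 in SA 0 h. All 6 SA 3 h arrays lay below all 12 control arrays. The differences were -0.51 ± 0.11 and -0.78 ± 0.11 against water (adjusted p = 9.8e-04 and 8.4e-06) and -0.67 and -0.57 against SA 0 h (adjusted p = 7.6e-05 and 4.2e-04). CSLD2 rose over water after ZT24 by 0.58 ± 0.14 (adjusted p = 0.0023), but differed by 0.03 from SA 0 h (adjusted p = 0.92).

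**Figure D4:**
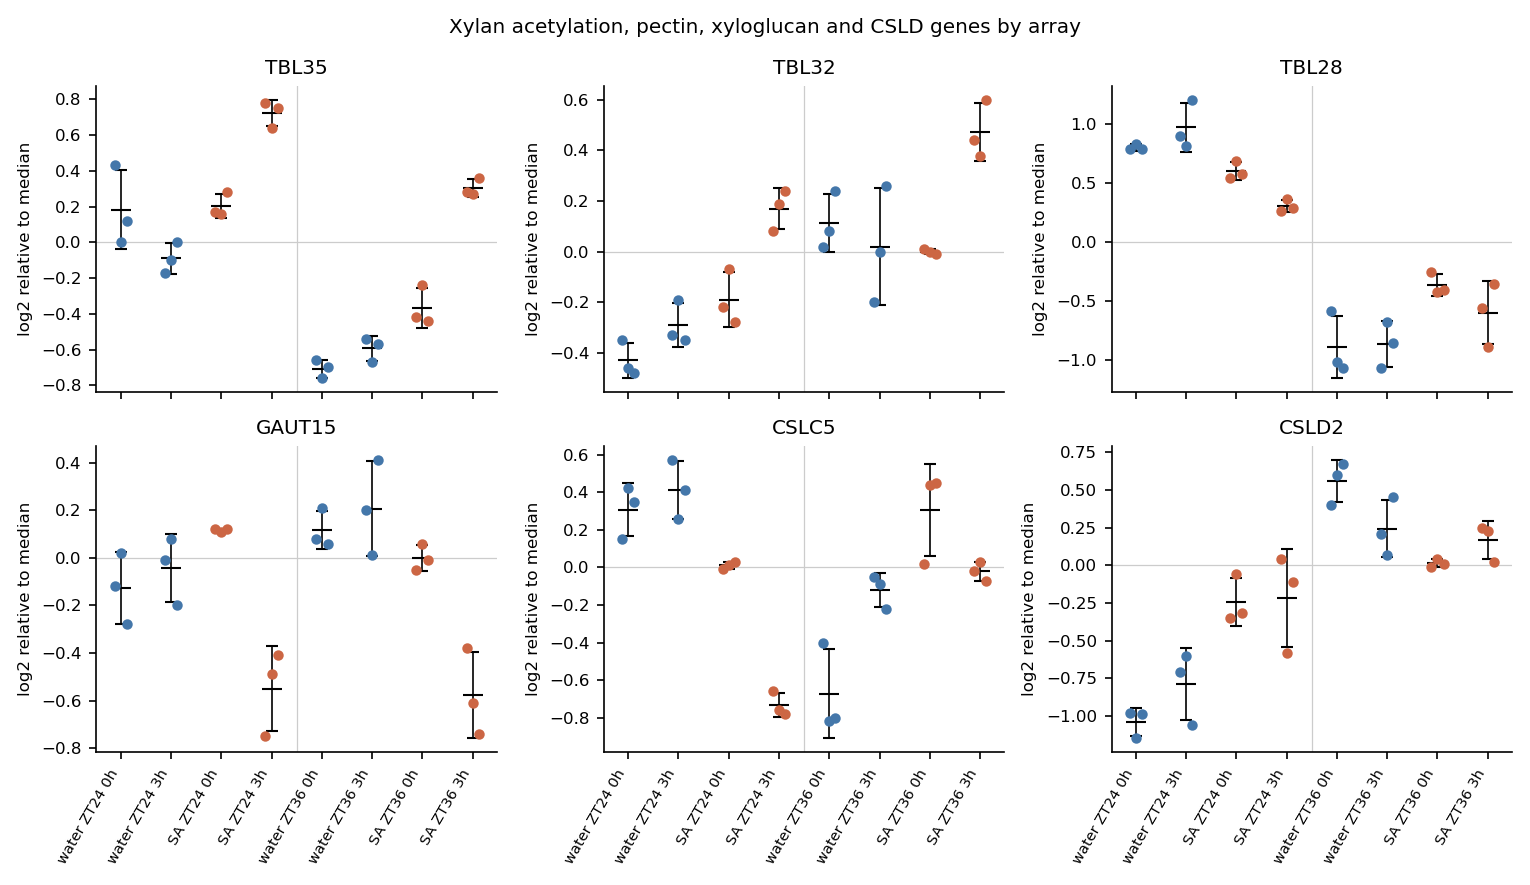
Log2 value relative to the median of the gene in each array (points; blue for water, red for SA), with group mean and SD (bars), for TBL35, TBL32 and TBL28 (xylan acetylation), GAUT15, CSLC5 (xyloglucan) and CSLD2; each panel has its own scale. GAUT15 is low in both SA 3 h groups, TBL35 and TBL32 are high there, and CSLC5 is low in SA 3 h at ZT24.

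Among the other TBL genes, TBL36 fell with SA after both times against water, with -1.04 ± 0.14 after ZT24 (adjusted p = 3.7e-06) and -0.49 ± 0.14 after ZT36 (adjusted p = 0.0067). Against SA 0 h it differed by -0.22 after ZT24 (adjusted p = 0.28) and by -0.44 after ZT36 (adjusted p = 0.019). The ZT36 value against water was lost without replicate 2 of water 3 h (-0.37, adjusted p = 0.056). That against SA 0 h was lost without replicate 2 of SA 3 h or replicate 3 of SA 0 h (adjusted p = 0.1 and 0.062) and under quantile normalization (-0.24, adjusted p = 0.2). TBL37 rose after ZT36 against water by 1.04 ± 0.21 (adjusted p = 3.0e-04) but differed by -0.01 from SA 0 h (adjusted p = 0.98). TBL41 passed in 3 of the 4 comparisons, with -0.48 and -0.51 after ZT24 (adjusted p = 0.013 and 0.011) and -0.43 against SA 0 h after ZT36 (adjusted p = 0.035). Its ZT24 calls were lost without replicate 3 of SA 3 h or replicate 1 of the control (adjusted p = 0.079 to 0.095), and its ZT36 call without any array but replicate 2 of SA 0 h (adjusted p = 0.054 to 0.17) and under quantile normalization (-0.19, adjusted p = 0.48).

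The remaining calls were small or rested on few arrays. TBL18 was lower than in water after ZT36, at -0.35 (adjusted p = 0.0019), but its means in SA 3 h and SA 0 h of that time were both -0.09. TBL16 differed there by -0.25 from water (adjusted p = 0.041) and by -0.33 from SA 0 h (adjusted p = 0.012); the first call was lost without replicate 2 or 3 of either group, and the second without replicate 2 of either (adjusted p = 0.056 to 0.2). TBL39 and TBL43 differed from water after ZT24 by -0.52 and -0.23 (adjusted p = 0.046 and 0.042). Leaving out any 1 array but replicate 2 of SA 3 h ended either call (adjusted p = 0.057 to 0.26). TBL45 differed from SA 0 h after ZT24 by -0.82 (adjusted p = 0.047), and any array but replicate 3 of SA 0 h ended that call (adjusted p = 0.077 to 0.14).

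**Figure D5:**
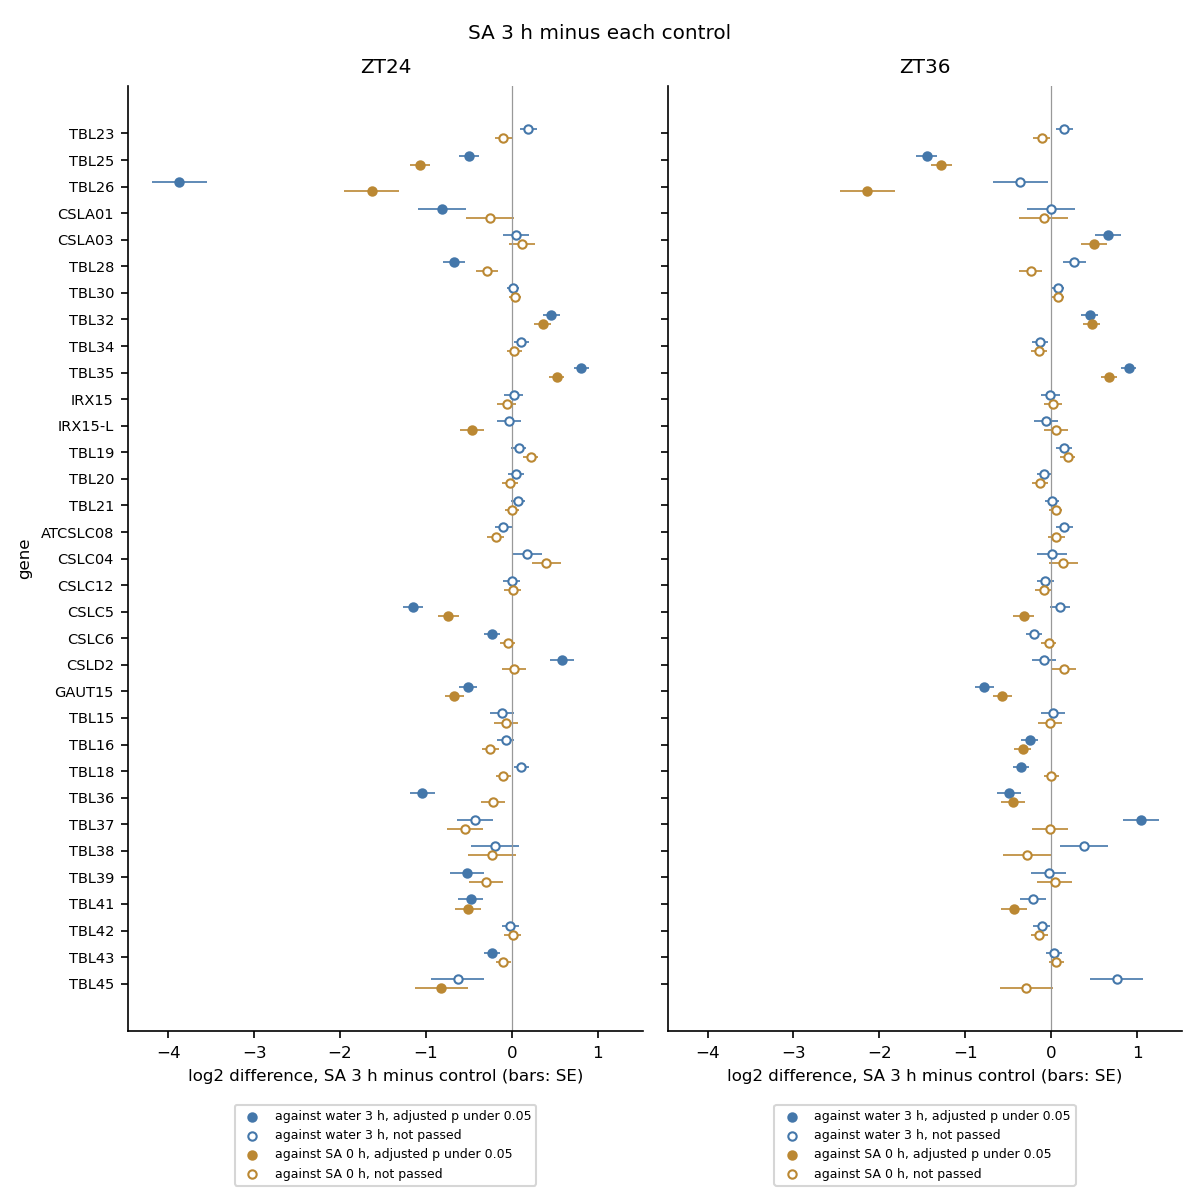
Log2 difference of SA 3 h from water 3 h (blue) and from the arrays labelled SA 0 h (ochre) for each gene, after ZT24 (left) and ZT36 (right); bars are standard errors and filled points have an adjusted p under 0.05. TBL26 after ZT24 lies at -3.87 and -1.63, TBL25 after ZT36 at -1.45 and -1.28, and TBL35 lies above 0 in all 4 cases.

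SA and water were also compared between arrays labelled 0 h. At ZT24, 3 genes were higher in SA and 3 lower (18.2%), where 8.26% of all probe sets were higher and 7.95% lower. CSLD2 was higher by 0.80 ± 0.14 (adjusted p = 5.0e-04), TBL25 by 0.61 ± 0.12 (adjusted p = 0.001) and IRX15-L by 0.50 ± 0.14 (adjusted p = 0.017). TBL26 was lower, at -2.27 ± 0.32 (adjusted p = 4.9e-05), as were TBL36, at -1.03 ± 0.14 (adjusted p = 3.3e-05), and CSLC6, at -0.28 (adjusted p = 0.035). The IRX15-L call was lost without replicate 1 or 3 of SA 0 h or replicate 3 of water 0 h (adjusted p = 0.053 to 0.12). That of CSLC6 was lost without any array but replicate 3 of water 0 h (adjusted p = 0.051 to 0.18).

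At ZT36, 8 genes were higher in the arrays labelled SA 0 h and 2 lower (30.3%), where 15.1% of all probe sets were higher and 13.9% lower. TBL26 was higher by 1.94 ± 0.32 (adjusted p = 8.7e-05), the opposite of its difference at ZT24. TBL45 was higher by 1.77 ± 0.31 (adjusted p = 1.6e-04), CSLC5 by 0.97 ± 0.12 (adjusted p = 3.4e-06), TBL37 by 0.92 ± 0.21 (adjusted p = 0.0017) and TBL28 by 0.53 ± 0.13 (adjusted p = 0.0045). CSLA03, TBL35 and TBL16 were the other genes higher, by 0.52, 0.34 and 0.28 (adjusted p = 0.0096, 0.0056 and 0.033). CSLD2 was lower, at -0.54 ± 0.14 (adjusted p = 0.0056), and so was TBL18, at -0.33 (adjusted p = 0.0052). The TBL18 call was lost in limma with only the arrays compared in the fit (adjusted p = 0.059). Under quantile normalization the split was 4 higher and 2 lower: TBL37 was no longer called (0.58, adjusted p = 0.066), nor TBL28 (0.17, adjusted p = 0.34), TBL35 (0.03, adjusted p = 0.85) or CSLA03 (-0.02, adjusted p = 0.94). CSLA03 was also lost without replicate 1 of SA 0 h (adjusted p = 0.085), and TBL16 without any 1 of 4 arrays (adjusted p = 0.076 to 0.15). Among the 6 markers, TRY and RCA were higher in SA 0 h at ZT36, by 0.54 and 0.44 (adjusted p = 0.022 and 1.6e-04), and LHCB4.2 was lower, at -0.49 (adjusted p = 0.0044), while none passed at ZT24. Their part in the 0 h results was not tested.

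Over 3 h in water, limma called 0 of the 33 genes after either time. After ZT24 the unadjusted p was under 0.05 for 3 genes and for 3.2% of all probe sets, and after ZT36 for 6 genes and 13.4% of all probe sets. The 3 genes after ZT24 were TBL34 (-0.31), TBL35 (-0.28) and TBL43 (0.28). After ZT36, CSLC5 had the smallest adjusted p, 0.088, with a difference of 0.55. Without replicate 1 of water 0 h at ZT36, CSLC5 (0.69, adjusted p = 0.006) and TBL45 (1.17, adjusted p = 0.025) passed, and CSLC5 also passed without replicate 3 of water 3 h (0.60, adjusted p = 0.046).

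The last question was whether the SA effect at 3 h depended on the time of treatment, tested as the effect after ZT24 minus that after ZT36. With water 3 h as the control, 3 genes had a positive difference and 6 a negative one (27.3%), where 10.4% of all probe sets were positive and 10.3% negative (20.7% in all). TBL26 stood out at -3.51 ± 0.45 (adjusted p = 1.2e-05), from effects of -3.87 and -0.36. Its water 3 h means were 3.60 at ZT24 and -1.05 at ZT36, and its lowest array of all 24 was at -1.88. How far TBL26 could fall after ZT36 cannot be read from centred values. TBL37 followed at -1.47 ± 0.29 (adjusted p = 0.001), with effects of -0.43 and 1.04, then TBL45 at -1.39 ± 0.43 (adjusted p = 0.026) and CSLC5 at -1.25 ± 0.17 (adjusted p = 1.9e-05), with effects of -1.15 and 0.10. TBL28 gave -0.93 ± 0.19 (adjusted p = 0.0012). TBL25 was the gene with the largest positive difference, 0.95 ± 0.17 (adjusted p = 3.6e-04), since its fall was larger after ZT36.

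The other genes of that list were CSLA03 at -0.61 (adjusted p = 0.039), CSLD2 at 0.65 (adjusted p = 0.024) and TBL18 at 0.47 (adjusted p = 0.0082). TBL45 and CSLD2 each lost the call without any 1 of 5 of the 12 arrays (adjusted p = 0.052 to 0.09), and CSLA03 without any 1 of 8 (adjusted p = 0.05 to 0.11). The total was 6 in place of 9 without replicate 3 of water 3 h at ZT36. TBL35, TBL32 and GAUT15, which changed after both times, gave -0.08, 0.01 and 0.27 (adjusted p = 0.73, 0.99 and 0.28), which does not show that their effects were equal. The same test gave -0.81 for the marker TRY (adjusted p = 0.021), 1.09 for LHCB4.2 (adjusted p = 1.5e-04) and 0.37 for LHCB4.1 (adjusted p = 0.021), and the other markers did not pass. Their part in these differences was not tested.

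With the arrays labelled SA 0 h as the control, limma called 0 of the 33 genes and 0.598% of all probe sets. The unadjusted p was under 0.05 for 2 genes, CSLC5 (-0.42) and IRX15-L (-0.50), and for 9.91% of all probe sets. TBL26 gave 0.51 ± 0.45 (adjusted p = 0.81), from effects of -1.63 after ZT24 and -2.14 after ZT36. The ZT24 minus ZT36 difference of the control itself was 4.65 in water 3 h and 0.63 in SA 0 h. Under quantile normalization 4 genes passed with this control: CSLA03 (-1.03, adjusted p = 0.017), IRX15-L (-0.93, adjusted p = 0.02), TBL28 (-0.66, adjusted p = 0.035) and TBL35 (-0.53, adjusted p = 0.036). The calls over all probe sets rose as well, from 92 positive and 44 negative to 542 and 475.

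Between arrays labelled 0 h, the SA minus water difference at ZT24 minus that at ZT36 was positive for 5 genes and negative for 7 (36.4%). Of all probe sets, 12.5% were positive and 13.7% negative (26.2% in all). TBL26 gave -4.20 ± 0.45 (adjusted p = 8.5e-07), TBL45 -1.74 ± 0.43 (adjusted p = 0.0049) and CSLC5 -1.27 ± 0.17 (adjusted p = 9.2e-06). CSLD2 gave 1.34 ± 0.20 (adjusted p = 4.2e-05), IRX15-L 0.68 ± 0.20 (adjusted p = 0.015) and TBL25 0.66 ± 0.17 (adjusted p = 0.0054). The IRX15-L value was 0.54 (adjusted p = 0.052) without replicate 3 of water 0 h at ZT24. Of the other genes, TBL36 gave -1.16 (adjusted p = 1.7e-04), TBL28 -0.73 (adjusted p = 0.006), CSLA03 -0.66 (adjusted p = 0.022), CSLC6 -0.35 (adjusted p = 0.043), TBL18 0.52 (adjusted p = 0.0028) and TBL43 0.36 (adjusted p = 0.038). CSLA03, TBL43 and CSLC6 were lost without any 1 of 4, 7 and 9 of the 12 arrays (adjusted p = 0.052 to 0.14). Under quantile normalization CSLA03 gave -0.11 (adjusted p = 0.8) and TBL28 -0.31 (adjusted p = 0.21). Of the markers, TRY gave -0.92 (adjusted p = 0.0073), RCA -0.40 (adjusted p = 0.0075) and LHCB4.2 0.72 (adjusted p = 0.0038), and their part here was not tested either.

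A total of 7 genes passed in none of the 15 comparisons: CSLC12, IRX15, TBL20, TBL21, TBL23, TBL30 and TBL42. Their largest difference in any comparison was 0.29 in size, that of TBL23 between SA and water at 0 h of ZT24 (adjusted p = 0.067). Since the values hold no level, it is not known here whether these probe sets were above background. How many of all probe sets passed in none of the comparisons was not counted.

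Other wall genes were sought by a list of 154 names, of which 4 outside the members had a named probe set. COBRA (COB), a membrane-anchored protein needed for oriented cellulose deposition, was higher at ZT24 in water by 0.30 at 0 h (adjusted p = 0.0089) and 0.28 at 3 h (adjusted p = 0.017), and by 0.38 in SA 0 h (adjusted p = 0.0027). It fell from SA 0 h to SA 3 h after ZT24, by -0.36 (adjusted p = 0.0028), but differed by -0.13 from water 3 h (adjusted p = 0.27). At 0 h it was higher in SA than in water by 0.33 at ZT24 and 0.24 at ZT36 (adjusted p = 0.013 and 0.042). USP, which makes nucleotide sugars, was higher at ZT24 in water 0 h by 0.27 (adjusted p = 0.035) and differed by 0.12 in water 3 h (adjusted p = 0.38). GH9A3, an endoglucanase related to KORRIGAN, passed nowhere. EXORDIUM (EXO), an extracellular protein linked to growth, was found under a name listed for pectin. It read 1.21, 1.22 and 0.93 in water 0 h at ZT36 and -0.37, -0.76 and -0.61 in SA 0 h, a difference of -1.70 ± 0.22 (adjusted p = 6.1e-06). In water 0 h at ZT24 it read 0.17, 0.08 and -0.19, lower than at ZT36 (adjusted p = 2.8e-04), the opposite direction to COB and USP. In water 3 h EXO differed between the times by 0.01 (adjusted p = 0.98). From SA 0 h to SA 3 h at ZT36 it rose by 1.09 ± 0.22 (adjusted p = 4.9e-04), but it differed by 0.45 from water 3 h (adjusted p = 0.11). Its SA minus water difference at 0 h differed between the times by 1.34 (adjusted p = 0.0024).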

How the data were processed

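Biotin-labelled RNA was measured on 24 Affymetrix arrays. The deposited values are log2 expression values of 22810 probe sets made by RMA, per the submitters' processing notes, which give no version. Each probe set had been centred on its median over the arrays (largest absolute median 5e-07), so signal over background is unknown, and the number of arrays limits precision. Array medians ran from -0.035 to 0.033. The 64 control probe sets were left out.

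Groups follow the labels. limma 3.58.1 (R 4.3.3) was fitted to 22746 probe sets and 24 arrays with a mean per group (16 residual and 4.03 prior degrees of freedom), with 2-sided moderated tests in 15 comparisons, Benjamini-Hochberg adjustment over all probe sets, and calls at adjusted p under 0.05. The code was tested on simulated data. Differences are first group minus second, with standard errors. The p-values measure the spread between these samples.

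All 33 members matched the RefSeq table of TAIR10.1, used for names and for which genes are neighbours. Members, lists and comparisons were chosen with earlier results of these data known. Beside TBL26, full values were due for up to 5 called genes a direction with groups apart (3 for differences of effects); other members' values were added after they were seen. No sequence was used here.

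Title numbers run through all arrays, and replicates are numbered in accession order. Arrays of the same run of 8 titles deviated together little (median correlation 0.04, other runs -0.02, 29.8% of 84 pairs over 0.1), so they were not taken as pairs. Alternatives were array median centring, quantile normalization, a trended and robust prior, array weights, leaving out the 25% of probe sets with the lowest SD, 1 probe set per gene, a replicate block, only the arrays compared, a log2 difference of at least 1, and each array left out. Figures used matplotlib 3.10.9 in Python 3.11.15.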

Additional observations from a re-analysis of the deposited data

Results flagged for a closer look

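In some genes the difference of SA arrays from their control differed between the times of treatment, by the test of the difference itself. The up to 3 largest values in each direction belong to 8 genes. With water 3 h as the control, the SA effect after ZT24 minus that after ZT36 was -3.51 for TBL26, -1.47 for TBL37 and -1.39 for TBL45. It was 0.95 for TBL25, 0.65 for CSLD2 and 0.47 for TBL18. The calls of TBL45 and CSLD2 were each lost without any 1 of 5 of the 12 arrays. TBL45 itself passed against water 3 h after neither time. Between SA and water arrays labelled 0 h, the difference at ZT24 minus that at ZT36 was -4.20 for TBL26, -1.74 for TBL45 and -1.27 for CSLC5. It was 1.34 for CSLD2, 0.68 for IRX15-L and 0.66 for TBL25. Whether these 0 h values are a response to SA was not tested. With the arrays labelled SA 0 h as the control, none of the 33 genes passed this test in limma, and 2 had an unadjusted p under 0.05 (4 passed under quantile normalization).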

How the results depend on the processing

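Of 135 counts of called genes recomputed under other settings, 119 stayed within 1.5 times the reported count. Counts of 0 that stayed 0 were taken as within that range, here and for the replicate block below. An added log2 difference of at least 1 left 3 genes for SA against water after ZT24 and 2 after ZT36, 2 and 2 against SA 0 h, 2 and 2 between arrays labelled 0 h, 8 and 8 for the times in water (0 h and 3 h), 3 and 3 for the times in SA, 4 for the difference of effects with water as control and 5 at 0 h. These are fewer by construction. Quantile normalization gave 6 in place of 10 between SA and water at 0 h of ZT36, where the calls over all probe sets did not fall. It gave 5 in place of 14 for the times in SA 3 h, where those over all probe sets fell too. With SA 0 h as control it gave 4 in place of 0 for the difference, where those over all probe sets rose too. Array weights gave 3 in place of 0 for water over 3 h at ZT36 (CSLC5, CSLC6 and TBL45). A limma fit of only the arrays compared gave 7 in place of 10 between SA and water at 0 h of ZT36. It ended the calls of TBL18, CSLA03 and TBL16 there (adjusted p = 0.059, 0.051 and 0.062). That fit also ended single calls elsewhere, such as CSLD2 for the difference of effects with water as control (adjusted p = 0.073). The cause of these changes was not tested. Leaving out each array gave 9 to 12 and 8 to 9 genes for SA against water at 3 h (ZT24, ZT36), 7 to 10 and 6 to 9 against SA 0 h, 4 to 6 and 8 to 10 at 0 h, 0 to 0 and 0 to 2 over 3 h in water, 15 to 19 and 13 to 19 for the times in water, 8 to 10 and 11 to 13 in SA, and 6 to 10, 0 to 0 and 10 to 12 for the differences (water control, SA 0 h control, 0 h). The replicate block on runs of title numbers kept all 15 counts within 1.5 times (14 for SA against water after ZT24, 20 for the times in water 3 h); among single genes reported, it ended the calls of CSLC5 for SA 3 h against SA 0 h after ZT36 (adjusted p = 0.054) and ATCSLC08 for the times in SA 3 h (adjusted p = 0.053). Over the 88 pairs of gene and comparison chosen by the naming rule, 1242 of 1310 recomputed values counted as unchanged, 68 lost a call and 0 reversed. That rule mostly picks the largest called differences of these same data. The counts therefore favour stability and do not cover the other called genes. Some of these pairs were not called, and for them a change of sign counted as unchanged, so the 0 covers called pairs only. Outside these pairs, CSLA03 between SA and water at 0 h of ZT36 went from 0.52 to -0.02 under quantile normalization. The number of arrays limits these tests; signal over background is unknown.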
